A study of Mus musculus with 6 samples.

Results

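The unfolded protein response and the integrated stress response genes examined here were Atf4, Atf3, Atf6, Ddit3, Ern1, Eif2ak3, Trib3, Chac1, Asns and Creb3l1. They were chosen by gene symbol as a working set for these pathways. All 10 have a row among the 33924 genes of the deposited table. RPE/choroid, the retinal pigment epithelium with the vascular layer beneath it, was taken from 3 young and 3 aged C57BL/6J mice, and both eyes of a mouse made up a sample. No genetic change or treatment is named for either group. By their titles young mice were 1 to 2 months old and aged mice 20 to 24 months, while the age field puts the aged mice at 22 to 24 months and the study's methods put the young mice slightly older. The sex field reads male, but both sexes appear in the study's methods. The value used is the authors' mean normalized count of each gene over the 6 libraries of both age groups. It carries no SD and no value for a single mouse. The other 5 numeric columns are the authors' own test of young against aged, and they were not used. Therefore no difference with age is given below, and every level is an average over young and aged tissue.

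When unfolded proteins build up in the endoplasmic reticulum (ER), 3 membrane sensors respond. Ern1 encodes IRE1 alpha, which splices Xbp1 mRNA, Eif2ak3 encodes PERK, which phosphorylates the translation factor eIF2 alpha, and Atf6 encodes a membrane-bound transcription factor released by cleavage in the Golgi. PERK is also one of the kinases that start the integrated stress response, in which general translation falls while Atf4 mRNA is translated. ATF4 then acts on genes for amino acid supply and on further stress regulators. The RPE is a secretory and phagocytic epithelium, and its ER carries a heavy load of membrane and secreted proteins.

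The response element that ATF4 binds together with C/EBP proteins, here the letters TGATGNAA on either strand (CARE), was found in the promoter windows of 3 members. A window is the 250 bases before the transcription start that RefSeq annotates on GRCm38.p6, and windows were at hand for 8 of the 10 members, all but Atf6 and Creb3l1. The 3 matches are shown because they mark the members whose own promoter sequence carries the letters of the pathway's central factor. The match is in capitals and the sequence runs 5′ to 3′ on the strand of the gene.
Atf3, minus strand, chr1:191183410-191183469: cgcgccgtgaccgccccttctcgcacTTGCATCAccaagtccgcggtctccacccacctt
Chac1, plus strand, chr2:119351023-119351082: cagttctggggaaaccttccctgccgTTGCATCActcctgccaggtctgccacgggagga
Asns, minus strand, chr6:7693210-7693258: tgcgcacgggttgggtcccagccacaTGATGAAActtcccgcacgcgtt

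In Asns the letters began 23 bases before the start, in Atf3 110 bases before it and in Chac1 193 bases before it. The Atf3 and Chac1 matches were the same 8 letters, read on the strand opposite to the gene, whereas the Asns match lay on the strand of the gene. The Atf3 window belongs to a start far inside the annotated gene. The window starts of Asns, Chac1, Ddit3 and Ern1 also lie inside the annotated gene, but close to its edge. The Asns match, at 7693225 to 7693232, thus lies within the annotated span of Asns, which reaches 7693254. Of 27025 genes with a window, 3.91% held TGATGNAA within the same distance, and of 32851 windows 3.45% did. A match is a description of letters and does not show that a factor was bound.

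The other letters searched were the ER stress response element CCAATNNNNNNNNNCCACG, a second form of it, ATTGGNCCACG, the cyclic AMP response element TGACGTCA, its core TGACG (CRE core) and the CCAAT box CCAAT, each on both strands. Neither form of the ER stress response element and no full TGACGTCA was in the window of any of the 8 members. These were rare letters everywhere, in 0.13%, 0.037% and 1.77% of all genes. TGACG, which TGACGTCA contains, was in the windows of Asns, Atf3, Atf4, Chac1 and Trib3, against 19.8% of all genes. CCAAT, which is also part of the first ER stress element, was in those of Atf4, Chac1, Ddit3 and Eif2ak3, against 37.5% of all genes. Eif2ak3 held CCAAT at 6 positions and Chac1 at 3, and none of the searched letters were in the window of Ern1. The windows of the 8 members had a GC content between 53.6% and 65.2%, with a median of 52.4% over all windows.

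**Figure D1:**
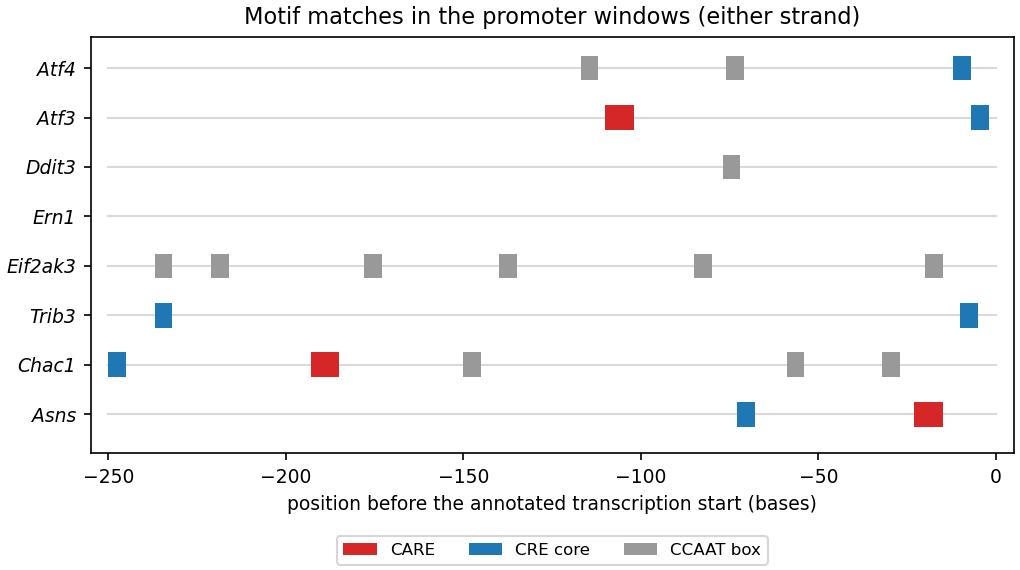
Matches of 3 motifs in the promoter windows of the 8 members with a window; the horizontal axis gives the position in bases before the annotated start, and bars are matches on either strand. Atf3, Chac1 and Asns carry CARE, at 110, 193 and 23 bases before the start.

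To set levels of different genes side by side, each mean normalized count was divided by the length of the gene's longest annotated transcript and is given per kilobase. The median transcript length, an alternative, is taken over all annotated transcripts of a gene, whatever their type. It was 568 bases for Asns, 639 for Trib3 and 1064 for Eif2ak3, against 2016, 2026 and 4513 in the longest. Ratios under it thus depend on how many short transcripts are annotated. The study's methods name TPM, a measure already divided by transcript length, as the source of the normalized counts. Division by length may therefore overcorrect, which was not tested. Orders that turn without division by length, such as Eif2ak3 against Atf6, depend on this choice. A percentile is the share of 21517 ranked genes, those with a mean of at least 1 and a known length, that lay below the gene. The median ranked gene had 134 mean normalized counts per kilobase. The 10 members ranged from 8.24 to 3936 per kilobase with a median of 275, a median percentile of 62.5, and 6 of the 10 lay above the median gene. Together the members held 420 of each 1000000 normalized counts. The order per kilobase was Atf4, Ddit3, Atf3, Eif2ak3, Atf6, Asns, Chac1, Trib3, Ern1 and Creb3l1. As no spread between mice is known, it cannot be said that neighbours in this order differed.

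**Figure D2:**
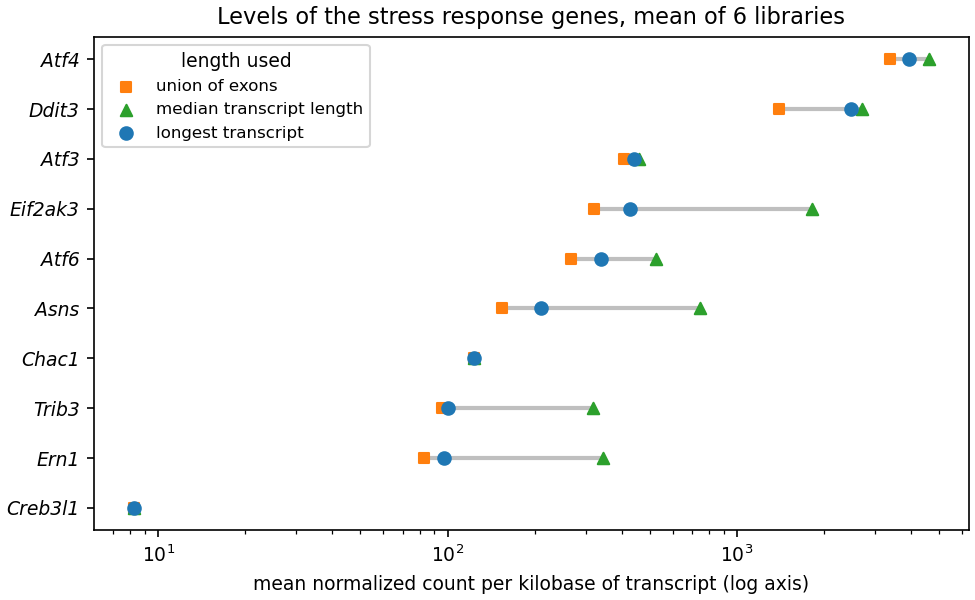
Level of each member as the authors' mean normalized count over 6 libraries per kilobase of transcript, on a log axis; points use the longest transcript, triangles the median transcript length and squares the union of exons, with a grey line over the range. Atf4 and Creb3l1 are highest and lowest under all 3 lengths, whereas Eif2ak3, Asns, Trib3 and Ern1 move most with the length used.

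The sensors came first. Eif2ak3 (ENSMUSG00000031668, plus strand of chromosome 6 of GRCm38 from 70844515 to 70905245, with 17 exons in the longest transcript) had a mean normalized count of 1932, or 428 per kilobase, at percentile 71.3. Ern1 (ENSMUSG00000020715, minus strand of chromosome 11 from 106394650 to 106487852, 22 exons) had 675, or 97.2 per kilobase, at percentile 45.0. Atf6 (ENSMUSG00000026663, minus strand of chromosome 1 from 170704674 to 170867771, 16 exons) had 2458, or 339 per kilobase, at percentile 66.9. Thus the PERK transcript was the more abundant of the kinase pair, 4.41 times the level of Ern1 per kilobase, with ratios of 5.26 and 3.88 under the other lengths and of 2.86 without division by length. Ern1 was the single sensor below the median gene per kilobase of the longest transcript, and lay at percentile 54.7 with the median transcript length and 57.8 without division by length. Eif2ak3 was 1.26 times Atf6 per kilobase of the longest transcript and 3.45 times with the median transcript length, whereas without division by length the ratio turned to 0.786.

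Among the members that encode transcription factors downstream of the sensors, Atf4 and Ddit3 stood at the top. Xbp1, which is not a member, had 2293 per kilobase, below Ddit3, but a mean normalized count of 4883, above that of Ddit3. The order of Ddit3 and Xbp1 thus depends on division by length. Atf4 (ENSMUSG00000042406, plus strand of chromosome 15 from 80255184 to 80257541) had the highest mean normalized count of the members, 7946, or 3936 per kilobase, at percentile 95.9. Ddit3, which encodes CHOP, a factor linked to cell death under lasting ER stress, followed with 2400, or 2477 per kilobase, at percentile 93.5. Atf4 was 1.59 times Ddit3 per kilobase and 3.31 times without division by length, since the longest Ddit3 transcript has 969 bases. Ddit3 (ENSMUSG00000025408) spans 127290774 to 127296288 of chromosome 10, plus strand. There a second annotated gene of the same symbol overlaps it on the same strand, 93.9% of the 50-base words of its transcript occur in no other gene, and Mars and Gm4189 overlap it on the opposite strand. The remaining words were shared only with that second gene of the same symbol. In this respect its value is less certain than those of the other 9 members, for which all words were their own. Whether the counting used strand is not known, so reads of Mars and Gm4189 could also bear on it, which was not tested. With the union of exons Ddit3 had 1401 per kilobase, and Atf4 was 2.41 times Ddit3.

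Atf3, a repressor and activator induced by many stresses, had a mean normalized count of 873, or 440 per kilobase, at percentile 71.7. The gene (ENSMUSG00000026628) spans 191170296 to 191218039 of chromosome 1, minus strand. It shares the basic leucine zipper fold with Atf4, Ddit3, Atf6 and Creb3l1. Its level was 0.112 times that of Atf4 per kilobase. Creb3l1 (ENSMUSG00000027230, minus strand of chromosome 2 from 91982328 to 92024502), also known as OASIS, is an ER-bound factor best known from bone and other collagen-secreting cells. It was the lowest member, with a mean normalized count of 21.5, or 8.24 per kilobase, at percentile 18.2. Its counts over the 6 libraries add up to only 129, so its level rests on few counts. Atf4 was 477 times Creb3l1 per kilobase.

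Asns, Trib3 and Chac1, genes that ATF4 acts on, lay between percentiles 45.6 and 58.0. Asns, asparagine synthetase, had a mean normalized count of 423, or 210 per kilobase, at percentile 58.0 (ENSMUSG00000029752, minus strand of chromosome 6 from 7675169 to 7693254). Trib3, a pseudokinase that restrains ATF4 and CHOP activity, had 204, or 101 per kilobase, at percentile 45.6 (ENSMUSG00000032715, minus strand of chromosome 2 from 152337422 to 152344032). Chac1, an enzyme that breaks down glutathione, had 201, or 123 per kilobase, at percentile 48.6 (ENSMUSG00000027313, plus strand of chromosome 2 from 119351229 to 119354381). Chac1 and Trib3 had almost equal counts, and both lay below the median gene per kilobase of the longest transcript, but Trib3 lay at percentile 53.7 with the median transcript length and Chac1 at 53.1 with the union of exons. Ddit3, itself a gene that ATF4 acts on, was 24.6 times Trib3 per kilobase, 8.45 times with the median transcript length and 11.8 times without division by length. The levels of Asns, Trib3 and Chac1 spanned 101 to 210 per kilobase. With the median transcript length Asns had 745, Trib3 319 and Chac1 123, so that Trib3 and Chac1 changed places. Atf4 was 18.7 times Asns per kilobase and 6.18 times with the median transcript length.

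**Figure D3:**
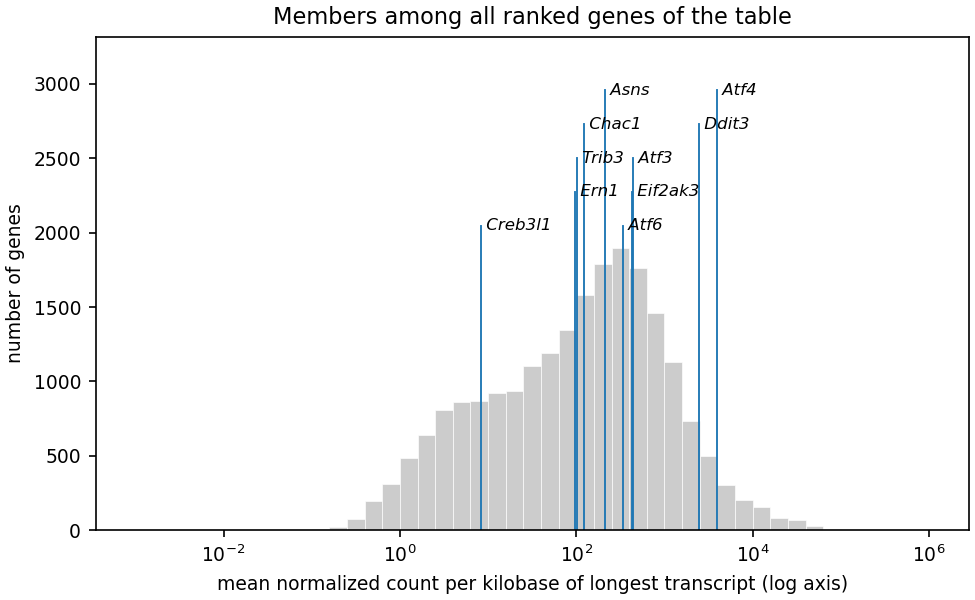
Distribution of 21517 ranked genes by mean normalized count per kilobase of the longest transcript (log axis, number of genes on the vertical axis), with a blue line at each member. Atf4 at 3936 and Ddit3 at 2477 lie in the upper tail, Creb3l1 at 8.24 in the lower part, and the other 7 members between 97.2 and 440.

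Upstream start codons in the leader before the coding sequence are a known feature of mRNAs translated under eIF2 alpha phosphorylation. They were counted in the annotated transcript with the longest coding sequence of each gene. Atf4 had 3 upstream AUGs in a leader of 594 bases, Eif2ak3 3 in 211, Ddit3 2 in 186, and Atf3, Asns and Creb3l1 had 1 each. Where coding sequences were equally long the longer transcript was taken, and the longest annotated Atf4 transcript has 1 exon. The Atf4 leader and its count may therefore include bases that are spliced out of other Atf4 transcripts. Atf6, Ern1, Trib3 and Chac1 had 0. So 6 of 10 members held one, 60.0%, against 51.8% of 16439 protein-coding genes with a leader, and the share itself does not set the members apart.

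The other genes of the pathway gave the frame for these levels. All 4 kinases of eIF2 alpha were present. Eif2ak3 was 2.72 times Eif2ak4 (GCN2, the amino acid sensor) and 2.60 times Eif2ak1 (HRI, the heme sensor) per kilobase, and with the median transcript length the ratios were 10.7 and 4.21. Against Eif2ak2 (PKR, the double-stranded RNA sensor, named outside the rule because it completes the family) the ratio was 1.37, and 0.898 with the median transcript length. Over the 13 eIF2 kinases, eIF2 and eIF2B subunits and phosphatase regulators the median was 512 per kilobase, and 13 of 13 lay above the median gene. Eif2b5 (1959 per kilobase), Eif2s3x (1599) and Eif2b2 (862) were highest and Eif2ak4 (157), Eif2ak1 (165) and Eif2b3 (211) lowest. Eif2ak4 and Eif2ak1 lay only just above the median gene, at percentiles 52.7 and 53.5. The list was not ranked among protein-coding genes alone.

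Xbp1, whose mRNA IRE1 alpha splices, had 2293 per kilobase, 23.6 times Ern1, with ratios of 13.6 with the median transcript length and 7.23 without division by length. Mbtps1 and Mbtps2, the proteases that cleave ATF6, had 762 and 212 per kilobase. Atf6b, the paralog of Atf6, had 552 per kilobase, 1.63 times Atf6, but 6.81 times with the median transcript length and only 0.576 times without division by length. Within the Creb3 family the levels were far apart. Creb3 had 1799 per kilobase and Creb3l2 240, while Creb3l4 had 46.9 and Creb3l3 8.98, next to Creb3l1. The mean normalized count of Creb3l3 was only 20.6, so its level also rests on few counts. Creb3 was 218 times Creb3l1 per kilobase, 634 times with the median transcript length and 158 times without division by length. For Creb3l2 the same ratios were 29.1, 53.4 and 79.2, all against the few counts of Creb3l1.

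The ER chaperones and folding enzymes were the most abundant group, with a median of 2133 per kilobase over 17 genes, a median percentile of 92.6, and 17 of 17 above the median gene. Calr, calreticulin, led with 11232 per kilobase, followed by Hspa5, the chaperone BiP that holds the sensors inactive, with 8180 and P4hb with 7322. Hspa5 was 24.1 times Atf6 per kilobase, 88.1 times with the median transcript length and 12.2 times without division by length. Lowest were Ero1lb (205), Ero1l (352) and Hyou1 (361). Of the 8 genes of ER-associated degradation 6 lay above the median gene. Herpud1 had 3430 per kilobase, Derl1 2553, Edem2 786, Sel1l 720, Derl2 633, Edem1 320, Syvn1 129 and Derl3 27.7. The 22 further genes that ATF4 acts on had a median of 590 per kilobase, and 17 lay above the median gene. Phgdh, the first enzyme of serine synthesis, was highest with 3216 per kilobase, 15.3 times Asns, then Slc3a2 with 2329 and Sars with 2130. Fgf21 (2.01), Stc2 (15.9) and Gdf15 (60.5), which encode secreted proteins, were lowest. Their mean normalized counts were 1.92, 63.3 and 93.5, so the level of Fgf21 in particular rests on very few counts.

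**Figure D4:**
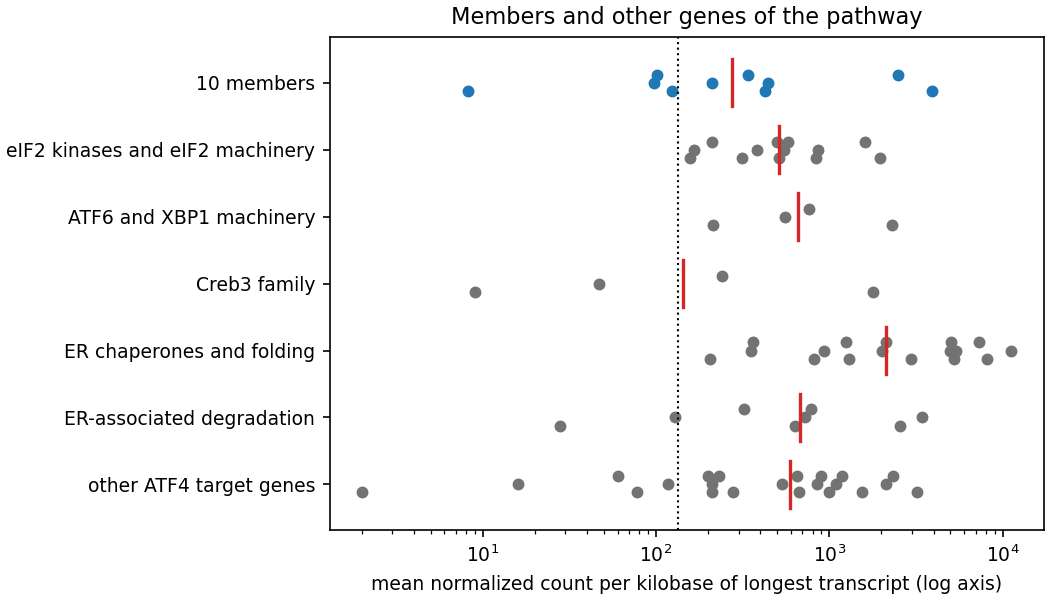
Mean normalized count per kilobase of the longest transcript (log axis) for the 10 members and the 6 lists of other pathway genes; each point is a gene, red lines are list medians and the dotted line is the median of all ranked genes, 134. The chaperone list has the highest median, 2133, and the members' median is 275.

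The tissue label was checked against cell type markers. Rgr, Rpe65, Rlbp1 and Lrat, which mark RPE, had 9523 to 63232 per kilobase. Rgr was 16.1 times Atf4, 101 times with the median transcript length and 37.4 times without division by length. Best1, also an RPE marker, had 39.3. Pigment genes had 28044 to 74294, fibroblast genes 1010 to 18042, macrophage genes 1197 to 2493 and endothelial genes 179 to 1244. Markers of photoreceptors, muscle and blood were also high, with rod photoreceptor genes at 4145 to 30177, skeletal muscle genes at 8136 and 28023, and Hba-a1 of red cells at 54142 per kilobase. Of the other red cell markers, Hbb-b1 had no matched length and Hbb-bs no row. The stress response genes are active in many cell types, the part of each in the members' levels was not tested, and in bulk tissue fewer cells of a type and less RNA per cell cannot be told apart.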

How the data were processed

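Poly(A) RNA of RPE/choroid was sequenced by the authors in 3 young and 3 aged samples. By the study's methods, the authors removed ribosomal RNA, made stranded libraries, trimmed with BBDuk, mapped to GRCm38 transcripts with STAR, quantified with Sailfish, scaled to total counts and ran DESeq2 on young against aged samples. Whether the counting used strand is not given in the sources used here. In the same methods Sailfish gave TPM values, already divided by transcript length, and these were turned into normalized counts by the total count. Whether the mean used here was already adjusted for length is not given and was not tested. The deposited signal used is the authors' mean normalized count over all 6 libraries. The mean rises with transcript length, from a median of 211 in the shortest of 10 length classes of protein-coding genes to 993 in the longest, whereas the level per kilobase falls from 233 to 112 between the same classes, so division by length places long genes such as Ern1 and Atf6 lower. The fold changes, standard errors, statistics and p-values of the authors' comparison were not used, and the table has no values per library. The planned edgeR test was therefore not run, and no replicate error, interval or depth per library can be given. The means add up to 40816668, and 8407 genes are listed at 0.

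Gene symbols were matched to GENCODE release 21 of the mouse series on GRCm38, directly or by RefSeq synonym, for 95.7% of the genes with a mean of at least 1. Symbols that had been turned into dates (25) were left out. The members and lists were chosen with earlier results of these data known. Besides the members, the 3 highest and 3 lowest genes of each list, or all genes of lists of up to 8, were named. Alternatives were other transcript lengths, other sets of ranked genes, a total without the 100 most abundant genes and, added after seeing the data, no division by length and percentiles under the other lengths. The percentile and motif procedures were tested on simulated data. Computations used Python 3.11.15, numpy 2.4.6, pandas 2.3.3 and matplotlib 3.10.9.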

Additional observations from a re-analysis of the deposited data

How the results depend on the processing

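The members' median level per kilobase was 493 with the median transcript length and 211 with the union of exons, in place of 275. Their median percentile of 62.5 was 55.0 among genes with a mean of at least 10, 66.5 among every gene with a mean above 0, 57.4 among protein-coding genes, 60.2 with the median transcript length, 60.2 with no division by length and 62.5 with the union of exons, the last 3 chosen after seeing the data. Their summed share rose from 420 to 528 per 1000000 counts when the 100 most abundant genes, with 20.6% of all counts, were left out of the total, by construction. With the union of exons 10 of 10 members kept their rank, with the median transcript length 5 and with no division by length 4. Over these alternatives the percentile of Atf4 lay between 92.0 and 96.4 and that of Creb3l1 between 5.07 and 26.8. Trib3 (34.9 to 53.7), Chac1 (38.5 to 54.1), Ern1 (34.2 to 57.8) and Asns (49.7 to 66.9) fell on either side of the median gene, and 8 members lay above it with the median transcript length.

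No paired analysis was possible because only a mean over all libraries was at hand. For the same reason the edgeR test, DESeq2 size factors, the count filter, leaving out replicates and the replicate block were not run. Depth per library is unknown, so which levels differ beyond counting error cannot be given.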

Other observations

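Among the RPE markers Best1, which encodes the chloride channel bestrophin 1, stood apart. It had a mean normalized count of 81.8, or 39.3 per kilobase at percentile 33.6, whereas Rpe65 had 61154 per kilobase, 1555 times as much. The ratio was 1499 with the median transcript length, 1857 with the union of exons and 1392 with no division by length.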
